A study of Mus musculus with 2 samples.

Results

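The genes described here were 9 members of the complement system, the plasma and tissue cascade that tags particles, dying cells and microbes for uptake and recruits leukocytes to them. They comprised the 3 chains of C1q (C1qa, C1qb and C1qc), which starts the classical pathway, C4b, which is cleaved next, C3, at which all routes meet, Cfb, the factor B that amplifies C3 cleavage, Serping1, the C1 inhibitor, and C3ar1 and C5ar1, the receptors for the C3a and C5a fragments. The members were chosen by gene symbol, and all 9 were found among the 32285 genes of the matrices. Lung cells were profiled by droplet single-cell RNA sequencing from female BALB/cJ mice, 12 weeks old, that carried an orthotopic mammary 4T1 tumor, a transplanted mouse line of triple-negative breast cancer that spreads to the lung. Both groups carried the tumor, so that neither was a healthy control, and lungs were taken on day 14. The NP group had received cargo-free nanoparticles of poly(lactide-co-glycolide), PLG, intravenously every 3 days from day 1. The particles were suspended in water and DPBS, and the saline group had received DPBS alone by the same route and schedule. Each group was 1 library of pooled lungs. The labels give 4 mice for each pool and the methods of the study give 5, and cells were not traced to a mouse.

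Complement works locally as well as in plasma. Most plasma complement is made in the liver, while C1q is made chiefly by macrophages and dendritic cells, and monocytes, mesothelium and fibroblasts make C3, factor B and C4 at sites of inflammation. C5a, acting on C5ar1, is a strong attractant of neutrophils, which fill the lungs of mice with 4T1 tumors. The comparison therefore asked in which lung cells each component was transcribed, and how its level in those cells differed between NP and saline.

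With 500 to 5000 detected genes and under 7.5% mitochondrial transcripts, 8662 saline and 8333 NP cells were kept, with a median of 6474.5 and 6008 UMIs (unique transcript molecules) per cell. Cells were clustered without any complement gene and grouped into 17 classes by fixed marker lists. A class name therefore means cells that resemble that type. The unnamed clusters held 302 saline and 416 NP cells. Neutrophils made up 65.0% of saline and 37.9% of NP cells, classical monocytes 8.04% and 13.4%, non-classical monocytes 1.07% and 4.72%, and endothelial cells 4.72% and 17.6%. A level is given as CPM, counts per 1000000, the UMIs of a gene in a class scaled to a common total of UMIs, and a difference as the log2 ratio of the NP over the saline level with a 95% interval. With 1 library in each group there was no replicate and no test, and the intervals cover counting error only, not the variation between mice or preparations. Barcodes of 21 kept cells occurred in both libraries, 0.242% of saline and 0.252% of NP cells.

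Of the 153 pairs of a member and a class, 53 had the 20 UMIs over both libraries required for a ratio, and 43 had no UMI in either library. Among the 53 measured pairs, 14 were at least 2-fold higher in NP and 2 were at least 2-fold lower, against 4.78% of all gene-by-class pairs higher and 3.24% lower. The intervals of 21 pairs lay wholly above 0 and those of 10 wholly below. Some of the 14 pairs reached 20 UMIs through NP alone, such as Serping1 in classical monocytes with 0 UMIs in saline and 47 in NP. The C1q pairs of neutrophils and of non-classical monocytes rested on a few shared cells. There 4 and 3 NP cells held 93.1% and 94.2% of the C1q UMIs of the class. The pairs are not independent, and their number does not measure a rise across members or classes. The higher pairs were in neutrophils, classical monocytes, non-classical monocytes and interstitial macrophages, and the lower pairs were in mesothelial and erythroid cells. No member passed 2-fold in either direction in alveolar macrophages (3 measured), endothelial cells (4), fibroblasts (4), basophils (2), epithelial cells (2) or pericytes (1). The shares of all genes at least 2-fold higher and lower in those classes were 1.28% and 1.57% in alveolar macrophages, 3.05% and 1.34% in endothelial cells, 3.7% and 3.87% in fibroblasts, 5.32% and 4.47% in basophils, 23.3% and 1.45% in epithelial cells, and 11.7% and 5.83% in pericytes. The 9 genes did not share a source.

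**Figure D1:**
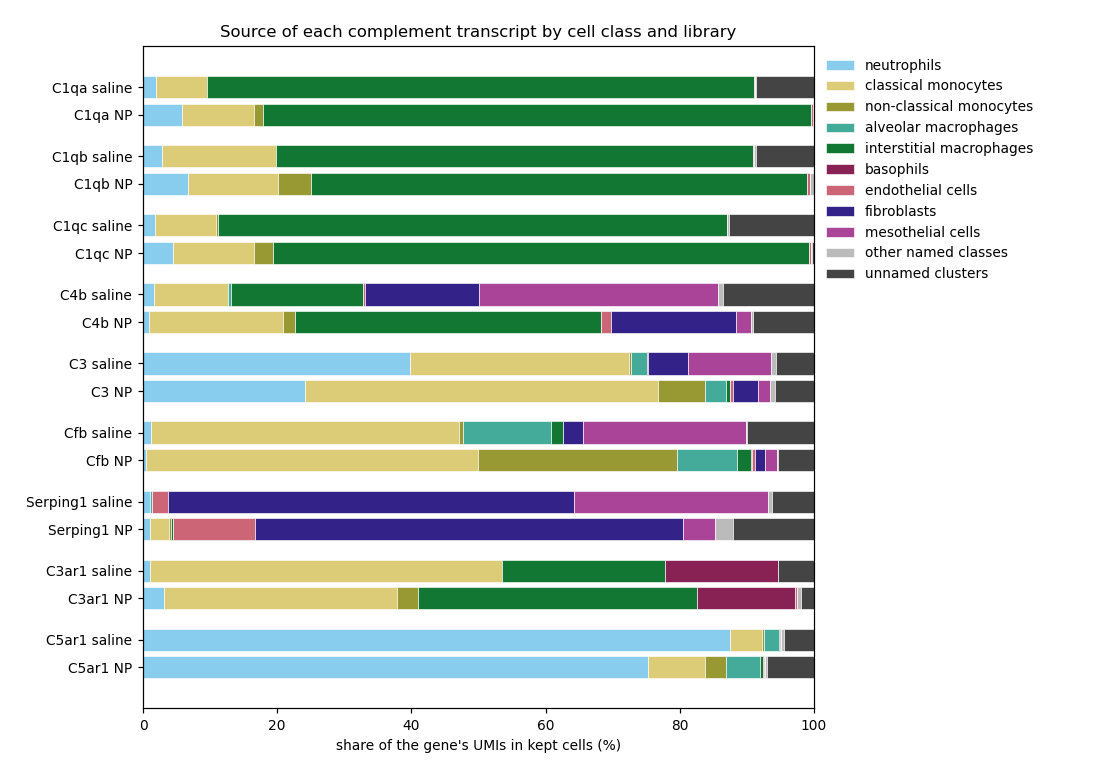
Share of each gene's UMIs (percent, horizontal axis) that came from each cell class or from unnamed clusters, with a saline and an NP bar for each of the 9 genes. The C1q chains came mainly from interstitial macrophages in both libraries, C5ar1 from neutrophils and Serping1 from fibroblasts, while C4b came mainly from mesothelial cells in saline (35.6%) and from interstitial macrophages in NP (45.6%).

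C1q is built from equal numbers of A, B and C chains, encoded by 3 neighbouring genes on the minus strand within 18.7 kb of chromosome 4. In GRCm38 the genes lie at chr4:136895917-136898803 (C1qa), chr4:136880129-136886187 (C1qb) and chr4:136889804-136893065 (C1qc). The 250 bases before the RefSeq start are shown for the chains that had an entry, because the 3 genes had the same main source in these data. Capitals mark a match to the core of a PU.1 site, GAGGAA on either strand. PU.1 is the factor that macrophages and monocytes need to form. The C1qb match lay 30 bases before the start and that of C1qc 193 bases before it, read on the opposite strand. Of 32851 RefSeq promoters of the same length, 23.3% held such a match, so that such a match is common.
C1qb, chr4:136886201-136886450, minus strand: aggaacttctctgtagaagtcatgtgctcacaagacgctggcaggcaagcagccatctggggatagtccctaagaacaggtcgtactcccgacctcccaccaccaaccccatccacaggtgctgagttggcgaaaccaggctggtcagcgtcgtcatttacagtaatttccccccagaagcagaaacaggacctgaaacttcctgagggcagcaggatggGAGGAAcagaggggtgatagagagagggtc
C1qc, chr4:136892915-136893164, minus strand: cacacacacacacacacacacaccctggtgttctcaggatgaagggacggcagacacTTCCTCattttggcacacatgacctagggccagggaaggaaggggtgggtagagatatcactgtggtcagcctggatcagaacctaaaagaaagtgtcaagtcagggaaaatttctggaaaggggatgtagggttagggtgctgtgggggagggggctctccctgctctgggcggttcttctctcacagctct

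C1q transcripts came from very few cells. Interstitial macrophages made up 15 of the 8662 saline cells (0.173%) and 36 of the 8333 NP cells (0.432%), yet they held 81.6% of all C1qa UMIs in saline and 81.7% in NP. For C1qb the class held 71.1% and 73.8%, and for C1qc 76.0% and 79.9%. All 11 markers of the class had UMIs in both libraries. Its cluster was led by Prg4, Alox15, Retnla, Mmp12, Ccl7, Ccl12, Mgl2, Ms4a7, Serpinb2 and Timd4, of which Prg4, Alox15 and Timd4 are also known from resident macrophages of the body cavities. The marker lists held none for such macrophages, so that the class name says only that the cells matched the fixed interstitial markers best. No C1q UMI was found in epithelial, mesothelial, erythroid or plasmacytoid dendritic cells, pericytes or basophils of either library, where a count of 0 allowed between 4.38 CPM (NP epithelial cells) and 133 CPM (saline pericytes). Alveolar macrophages, the resident phagocytes of the airspace, had no C1q UMI in saline and 1 UMI of each chain in NP.

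Within interstitial macrophages, C1qa and C1qb were lower in NP, while the C1qc interval included 0. C1qa was 5766 CPM in saline (943 UMIs) and 3920.5 CPM in NP (1936 UMIs), a log2 ratio of -0.56 (-0.67 to -0.44). C1qb was 3455 CPM and 2144.5 CPM, a log2 ratio of -0.69 (-0.84 to -0.54). C1qc was 2299 CPM and 2057 CPM, a log2 ratio of -0.16 (-0.33 to 0.01). Of the 8 members measured in the class, none was 2-fold lower and 1 was 2-fold higher, against 5.79% and 6.39% of its 4212 genes. The cells of the 2 libraries overlapped widely. Single saline cells ranged from 44.8 to 20190 CPM of C1qa with a median of 5116, and NP cells from 0 to 12190 with a median of 4020. All 3 chains were found together in 15 of 15 saline cells and in 32 of 36 NP cells. C1qa, C1qb and C1qc made up 50.05%, 29.99% and 19.96% of the C1q UMIs of the class in saline and 48.3%, 26.4% and 25.3% in NP. The summed level of 13 neutrophil markers in the class was 2470 CPM in saline and 798 CPM in NP, and the part of this in the C1q ratios was not tested. With each cell classed by its own marker score, which put 75 saline and 81 NP cells in the class, the log2 ratios were 0.41 for C1qa and 0.24 for C1qb, so that the direction depended on how the class was drawn.

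**Figure D2:**
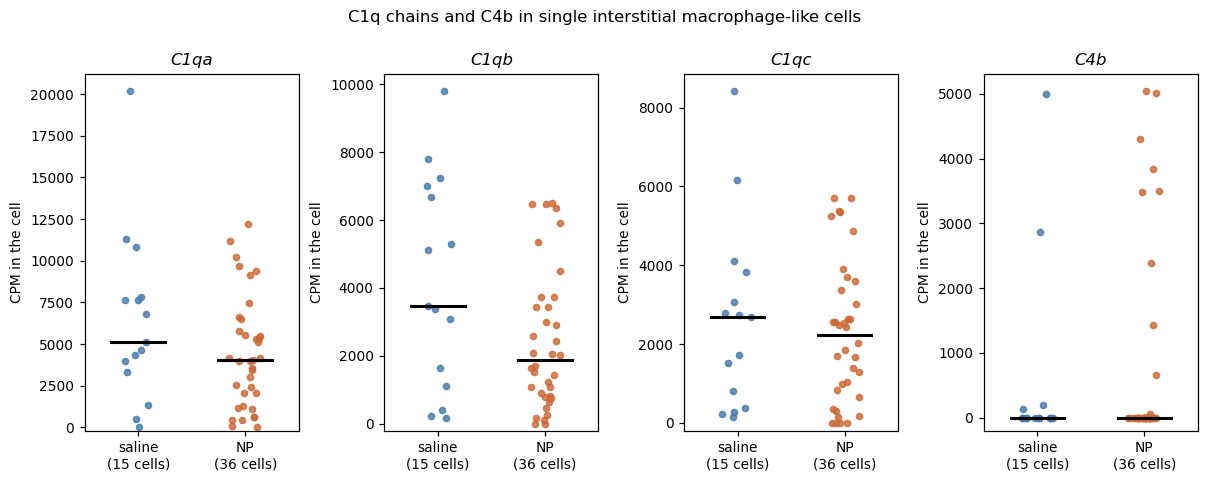
CPM of C1qa, C1qb, C1qc and C4b in each single interstitial macrophage, 15 cells in saline and 36 in NP, with the median as a black line. The C1q levels of the cells overlapped between the libraries, whereas C4b was near 0 in most cells and high in 2 saline and 8 NP cells.

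Over all kept cells, C1q was higher in NP. C1qa was 14.9 CPM in saline and 32.7 CPM in NP, a log2 ratio of 1.14 (1.04 to 1.24). C1qb was 10.2 and 19.8 CPM, a log2 ratio of 0.96 (0.83 to 1.08), and C1qc 6.36 and 17.6 CPM, a log2 ratio of 1.47 (1.32 to 1.62). When the NP level of each class was combined with the saline share of UMIs of each class, the log2 ratios were -0.10, -0.23 and 0.15. By this arithmetic, and with these class borders, the library-wide difference in C1q went with the larger share of interstitial macrophages in NP. That share depends on the borders, since the class held 75 saline and 81 NP cells with each cell classed by its own marker score, and 13 and 19 without the highest doublet scores. The median log2 ratio of all genes over the kept cells was 0.39, and 14.8% of them were at least 2-fold higher and 1.85% lower. Of the 9 members, C1qa, C1qc, Cfb and C3ar1 were at least 2-fold higher and none was 2-fold lower. Of these only Cfb stayed past 2-fold under all 13 alternatives, with a lowest log2 ratio of 1.53. The lowest was 0.46 for C1qa and 0.88 for C1qc, both without the highest doublet scores, and 0.63 for C3ar1 when centred on the median of all genes.

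Smaller amounts of C1q lay in monocytes and neutrophils, again in a few cells. In classical monocytes C1qa was 7.88 and 13.6 CPM, a log2 ratio of 0.78 (0.43 to 1.15), and C1qc was 4.03 and 8.29 CPM, a log2 ratio of 1.04 (0.55 to 1.55), while C1qb was 12.1 and 10.4 CPM, a log2 ratio of -0.22 (-0.54 to 0.11). With each cell classed by its own marker score the C1qa ratio was -0.48 and the C1qc ratio -0.23. In all, 5 of 696 saline and 10 of 1118 NP cells of this class had 10 or more C1q UMIs, and they held 95.5% and 93.8% of its C1q. Nearly all lay in cluster P0, a group with Aif1, Ccr2 and Ms4a6d among its leading genes, which held 85 of 88 C1qa UMIs in saline and 245 of 252 in NP. The level in that cluster was 51.1 CPM in saline and 51.2 CPM in NP. Beside this, the median summed level of the interstitial macrophage markers was 6548 and 9244 CPM in the cells with 10 or more C1q UMIs and 3810 and 1657 CPM in the other classical monocytes. Non-classical monocytes went the other way. There 3 of 393 NP cells held 94.2% of the C1q, with a marker sum of 117.6 CPM against 1328 CPM in the other NP cells. Much of the sum is Apoe, at 23700 CPM in saline interstitial macrophages with under 10 C4b UMIs, where the class sum was 27070 CPM.

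In neutrophils 5 of 8 measured members were at least 2-fold higher in NP and none lower, against 5.05% and 2.71% of 11336 genes, but none of the 5 had more than 139 UMIs in either library. C1qa had 22 UMIs in saline and 139 in NP, a log2 ratio of 3.63 (2.97 to 4.35), C1qb had 23 and 96, a log2 ratio of 3.03 (2.36 to 3.75), and C1qc had 9 and 56, a log2 ratio of 3.61 (2.58 to 4.81). Free RNA could account for at most 25.0 C1qa UMIs in saline and 11.01 in NP. In NP 4 cells of 3161 held 93.1% of the C1q UMIs of the class, and in saline 1 cell of 5634 held 64.8%. Those cells had a median summed level of interstitial macrophage markers of 9891 CPM in saline and 11370 CPM in NP, against 0 in the other neutrophils. Cluster 13, whose leading genes Ngp, Camp and Ltf encode granule proteins of immature neutrophils, held 112 of the 139 NP UMIs of C1qa, and without it the log2 ratios were 1.45, 1.49 and 0.57 for C1qa, C1qb and C1qc. With the 8% of cells of highest doublet score left out, the ratio of C1qc was -0.71. Cfb, with 9 and 11 UMIs, was at or under the free-RNA limit of 9.03 in saline and just over that of 10.95 in NP, and Serping1 had 15 and 17 UMIs against limits of 10.9 and 7.30.

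C4b encodes complement C4, which is cleaved by the C1 complex and forms part of the enzyme that cleaves C3. The gene lies at chr17:34728380-34743882 on the minus strand, 1 member of a pair with its near-identical copy C4a, so that the split of reads between the copies is uncertain. C4a itself had 6 UMIs in saline and 7 in NP. Over all kept cells C4b was 11.7 CPM in saline and 18.25 CPM in NP, a log2 ratio of 0.64 (0.52 to 0.76). The source of C4b differed between the libraries. Mesothelial cells, the lining of the pleura, gave 35.6% of the UMIs in saline and 2.20% in NP, while interstitial macrophages gave 19.8% and 45.6%. Fibroblasts gave 16.9% and 18.6%. The NP share of interstitial macrophages rested on a few cells, and was 25.8% with at most 4000 detected genes, 32.6% with each cell classed by its own marker score and 23.5% with equal weight per cell, while the saline share of mesothelial cells lay between 29.8% and 36.5% over 12 alternatives.

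C4b in interstitial macrophages was concentrated in a small subset. The class level was 1101 CPM in saline and 1219 CPM in NP, a log2 ratio of 0.15 (-0.10 to 0.40). In saline 2 of 15 cells held 178 of its 180 UMIs, and in NP 8 of 36 cells held 595 of 602. Cells with 10 or more C4b UMIs reached 3963 CPM in saline and 3566 CPM in NP, and the others 16.9 and 21.4 CPM. The division was by raw count, which a deeper cell passes more easily. The C4b-rich cells had 21662 and 23252 UMIs of all genes in saline and 11291 to 31355 in NP. The rest had 1571 to 22329 in saline and 4026 to 19585 in NP. The part of depth or of doublets in this division was not tested. Both kinds carried C1qa, at 5522 and 4105 CPM in the C4b-rich cells and 5859 and 3826 CPM in the rest. They differed in other genes, described here after the division was seen and with no test. The macrophage marker Ms4a7 was 0 and 12.0 CPM in C4b-rich cells and 337 and 483 CPM in the rest, the chemokine gene Ccl12 was 0 in both and 1062 and 312 CPM in the rest, and the mannose receptor gene Mrc1 was 0 and 120 CPM against 717 and 434 CPM. Cfb ran the other way, at 289 and 330 CPM in C4b-rich cells and 0 and 9.18 CPM in the rest. Of the other class markers, Cd163 and Ccl8 were 0 in the C4b-rich cells of both libraries, and Folr2 and Cbr2 were 0 in those of saline. Apoe was 23980 and 15320 CPM in C4b-rich cells and 23700 and 19780 CPM in the rest, and Maf 156 and 264 CPM against 379 and 187 CPM. The C4b-rich cells thus lacked several of the fixed markers, and the class name fits them less well than the rest. C1q and C4b shared a class as drawn here, but C4b and Cfb occurred together in a minority of its cells.

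C4b was lower in NP mesothelial cells and higher in NP classical monocytes. In mesothelial cells it was 905 CPM in saline (324 UMIs, 33 cells) and 380 CPM in NP (29 UMIs, 11 cells), a log2 ratio of -1.25 (-1.86 to -0.70), the only member of 4 measured there to pass 2-fold, in a class where 11.7% of 3442 genes were 2-fold lower and 5% higher. Leaving out the cells of highest doublet score kept 1 of the 11 NP cells and turned this ratio to 1.89. In classical monocytes it was 8.96 and 14.2 CPM, a log2 ratio of 0.66 (0.32 to 1.01). In fibroblasts it was 328 and 362 CPM, a log2 ratio of 0.15 (-0.15 to 0.45). One fibroblast cluster stood apart, S8, led by Gsn, Mfap5, Col3a1 and Dpt, with 149 CPM in saline and 515 CPM in NP, a log2 ratio of 1.79 (1.05 to 2.56) over 18 and 14 cells.

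C3, on the minus strand at chr17:57203970-57228136, is the most abundant complement protein of plasma, and its fragments coat surfaces and give the anaphylatoxin C3a. The 250 bases before its start are shown because C3 was the member detected in all 17 classes. Capitals mark the match to a C/EBP site (TTGCNNAA, either strand), 45 bases before the start, and 9.56% of RefSeq promoters held such a match. C/EBP factors act in acute-phase genes and in myeloid cells.
C3, chr17:57228137-57228386, minus strand: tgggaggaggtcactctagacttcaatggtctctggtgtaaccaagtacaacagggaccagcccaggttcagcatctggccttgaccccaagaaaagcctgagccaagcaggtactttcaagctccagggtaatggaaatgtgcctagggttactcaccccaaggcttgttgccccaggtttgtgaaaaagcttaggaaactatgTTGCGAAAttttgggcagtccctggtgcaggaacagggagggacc

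Matches to a GAS site (TTCNNNGAA), to the interferon-stimulated response element (ISRE) and to an NF-kB site were also sought on both strands in the 5 members with an entry, C1qb, C1qc, C3, C3ar1 and C5ar1, and 7.02%, 2.98% and 1.41% of all promoters held them. Only C3ar1 had such a match, to the NF-kB letters 14 bases before its start, and C5ar1 had none of the 5 motifs. No promoter held more than 1 match, so that none overlapped.

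The highest C3 levels were in stromal cells and the largest numbers of UMIs in myeloid cells. Mesothelial cells had 3722.5 CPM in saline and 2853 CPM in NP, a log2 ratio of -0.38 (-0.60 to -0.18), with C3 in 33 of 33 and 9 of 11 cells. Fibroblasts had 1334 and 670 CPM, a log2 ratio of -0.99 (-1.17 to -0.82), just short of 2-fold lower. Classical monocytes had 313 and 346 CPM, a log2 ratio of 0.14 (0.08 to 0.20), and neutrophils had 87.2 and 118 CPM, a log2 ratio of 0.44 (0.37 to 0.50). By number of UMIs, neutrophils led in saline with 39.8% of C3, followed by classical monocytes with 32.7%, while classical monocytes led in NP with 52.6% (37.6% with equal weight per cell), followed by neutrophils with 24.1%. Over all kept cells C3 was 137 and 169 CPM, a log2 ratio of 0.29 (0.26 to 0.33), smaller than the median ratio of 0.39 of all genes.

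Among fibroblast clusters the C3 difference was not uniform. The log2 ratio was -1.02 in cluster S5 and -0.73 in S8, where C3 was 2832 CPM in saline and 1712 CPM in NP, but 0.42 (0.09 to 0.77) in S6, from 977 to 1310 CPM. The other fibroblast clusters, S2 and S7, had ratios of 0.47 and 0.40 with intervals that included 0. S8 had 456 of the 627 saline UMIs of the class and made up 18 of its 84 saline and 14 of its 123 NP cells, so that the class level also moved with the share of S8. In saline 5 cells held 56.6% of the C3 UMIs of the class, and with equal weight per cell the class ratio was -0.34.

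**Figure D3:**
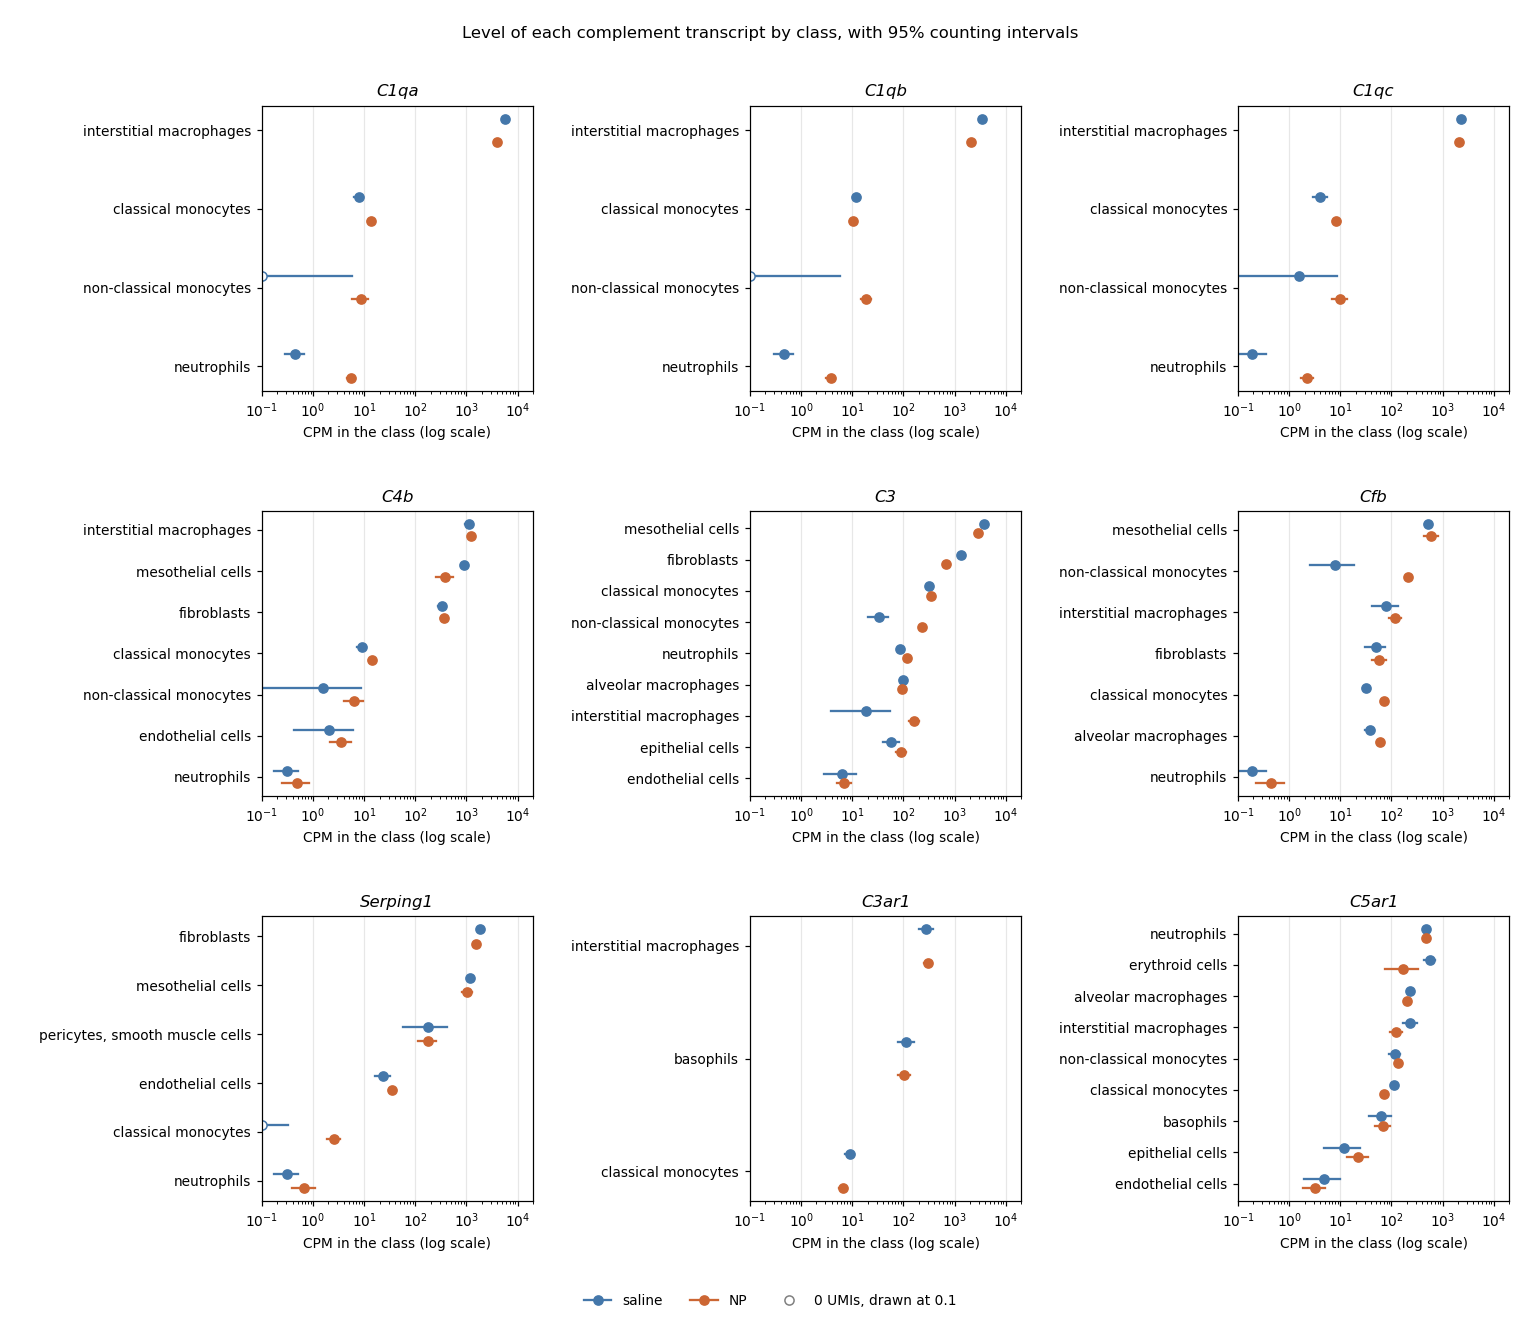
Level of each gene (CPM, log axis) in saline and NP in each class with at least 20 UMIs of it over both libraries, with 95% counting intervals cut at 0.1 CPM, and an open circle at 0.1 where a class had no UMI. Interstitial macrophages stand above every other class for the C1q chains, mesothelial cells and fibroblasts for C3 and Serping1, and neutrophils are among the highest classes for C5ar1.

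C3 showed its clearest difference in non-classical monocytes, the patrolling monocytes of the vessel lumen. It had 21 UMIs in 93 saline cells and 852 in 393 NP cells, 32.6 against 228 CPM, a log2 ratio of 2.81 (2.19 to 3.51). With every cell thinned to 1000 UMIs, 2.15% of saline and 21.1% of NP cells had a C3 UMI, and 18.3% and 64.1% did without thinning, at median depths of 6333 and 8287 UMIs. B cells, taken as a class that should lack C3, had 0.640% and 0.498% after thinning and 2.35% and 1.16% before, at median depths of 4339 and 4451. Different clusters held most of the class in each library, P9 with 79 of the 93 saline cells and P2 with 280 of the 393 NP cells. Within P9 the log2 ratio of C3 was 1.90 (1.10 to 2.79) and within P2 2.60 (1.37 to 4.23). Without P14, a cluster of 27 cells found in NP alone, the class ratio was 2.69. In this class 5 of 7 measured members were at least 2-fold higher in NP and none lower, against 6.64% and 3.49% of its 8748 genes. The other 4 were C1qb, C1qc, C4b and Cfb, with 0, 1, 1 and 5 UMIs in saline. These 4 met the UMI minimum through NP alone, where the class held 3731085 UMIs against 643434 in saline. C1qb and C1qc also shared their main cells, since 3 of 393 NP cells held 94.2% of the C1q of the class. The count of 5 therefore does not measure a rise across the members in this class. C1qb had 70 UMIs in NP, 41 of them in 1 cell, and was 4.02-fold higher with the saline count set to 3. This value covers counting error only, not the spread of C1q over cells. With each cell classed by its own marker score the log2 ratio of C1qb was -0.66. C1qc, with 36 UMIs in NP, had a log2 ratio of 2.63 with an interval from 0.06 to 7.98.

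In neutrophils the C3 difference was small and occurred in most clusters. The ratio was above 0 in 7 of 9 measured clusters, with a median of 0.37. Cluster 12, led by Cxcl10, Acod1 and Isg15, genes of the response to interferon and inflammatory stimuli, had the highest C3 of any neutrophil cluster and a lower level in NP, 308 CPM in 28 saline cells and 184 CPM in 496 NP cells, a log2 ratio of -0.74 (-1.27 to -0.17). Cluster 13 followed with 157 and 179 CPM. The clusters differed in their shares of the class, since cluster 1 held 1358 of the 5634 saline neutrophils and cluster 2 held 915 of the 3161 NP neutrophils. In interstitial macrophages C3 had 3 UMIs in saline and 81 in NP, of which 63 came from 1 cell. In alveolar macrophages C3 was 98.9 and 95.3 CPM, a log2 ratio of -0.05 (-0.28 to 0.18), and in epithelial cells 58.4 and 91.4 CPM, a log2 ratio of 0.65 (0.05 to 1.27), in a class whose genes had a median ratio of 0.55.

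Cfb, at chr17:34856374-34862518 on the minus strand and within 134 kb of C4b, encodes factor B, the serine protease of the alternative pathway C3 convertase. Of the 9 members it had the largest difference over all kept cells, 9.74 CPM in saline and 36.8 CPM in NP, a log2 ratio of 1.92 (1.80 to 2.04) or 3.78-fold. With NP levels at the saline mix of classes the log2 ratio was 0.98, so that by this arithmetic the difference lay both inside the classes and in their proportions. Classical monocytes were the leading source in both libraries, with 45.9% and 49.6% of Cfb UMIs. Mesothelial cells came next in saline with 24.3%, and non-classical monocytes in NP with 29.6%.

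Both monocyte classes had more Cfb in NP. In classical monocytes it had 348 UMIs in saline and 1321 in NP, 31.2 against 71.1 CPM, a log2 ratio of 1.19 (1.02 to 1.37), and over 13 changes of filter, clustering and scaling this ratio ran from 1.07 to 1.24. In non-classical monocytes it had 5 and 788 UMIs, 7.77 against 211 CPM, a log2 ratio of 4.76 (3.54 to 6.39), and from 3.11 to 5.37 over 14 such changes. The saline level of the latter rests on 4 cells with a UMI. After thinning, 2.16% of saline and 6.98% of NP classical monocytes had a Cfb UMI, and 1.08% and 12.0% of non-classical monocytes. Without thinning the shares were 29.3% and 41.4%, and 4.30% and 39.9%. Neutrophils, taken as background, had 0.0178% and 0.0633% after thinning and 0.160% and 0.316% before, at median depths of 6122 and 5296 UMIs against 15586 and 16164 in classical monocytes.

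The cluster values place the Cfb difference in part of the monocytes. P0, the cluster of classical monocytes that also held C1q, had 45.1 CPM in saline and 160.5 CPM in NP, a log2 ratio of 1.83 (1.49 to 2.19), and made up 768 of the 1321 NP UMIs. P4 and P5 had log2 ratios of 1.05 (0.22 to 1.97) and 1.29 (0.74 to 1.84). P7 went from 53.1 to 74.9 CPM, a log2 ratio of 0.50 (0.01 to 1.01). P3, P6, P8 and P11 had intervals that included 0, from 32.4 to 32.3 CPM in P3, from 32.7 to 22.5 CPM in P6 and from 87.4 to 52.1 CPM in P8, the last with 6 saline cells. In non-classical monocytes P14 alone, the 27 NP cells led by Il4i1, Bcl2a1d, Il1rn and Cxcl9, had 1043 CPM and 482 of the 788 UMIs. The class name of P14 rests on a small margin. Its mean log2 fold of the markers over the median cluster was 3.18 for non-classical and 2.97 for classical monocytes. Without P14 the class ratio was 3.59. The ratio was 2.22 (0.66 to 4.51) in P2 and 3.10 (1.05 to 6.25) in P9, which rest on 3 and 2 saline UMIs. The summed level of neutrophil markers was lower in NP in both classes, 4950 and 2146 CPM in classical and 1930 and 978.5 CPM in non-classical monocytes, and that of interstitial macrophage markers was 5327 and 2990 CPM and 3646 and 2040 CPM. The part of these marker genes in the ratios was not tested.

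**Figure D4:**
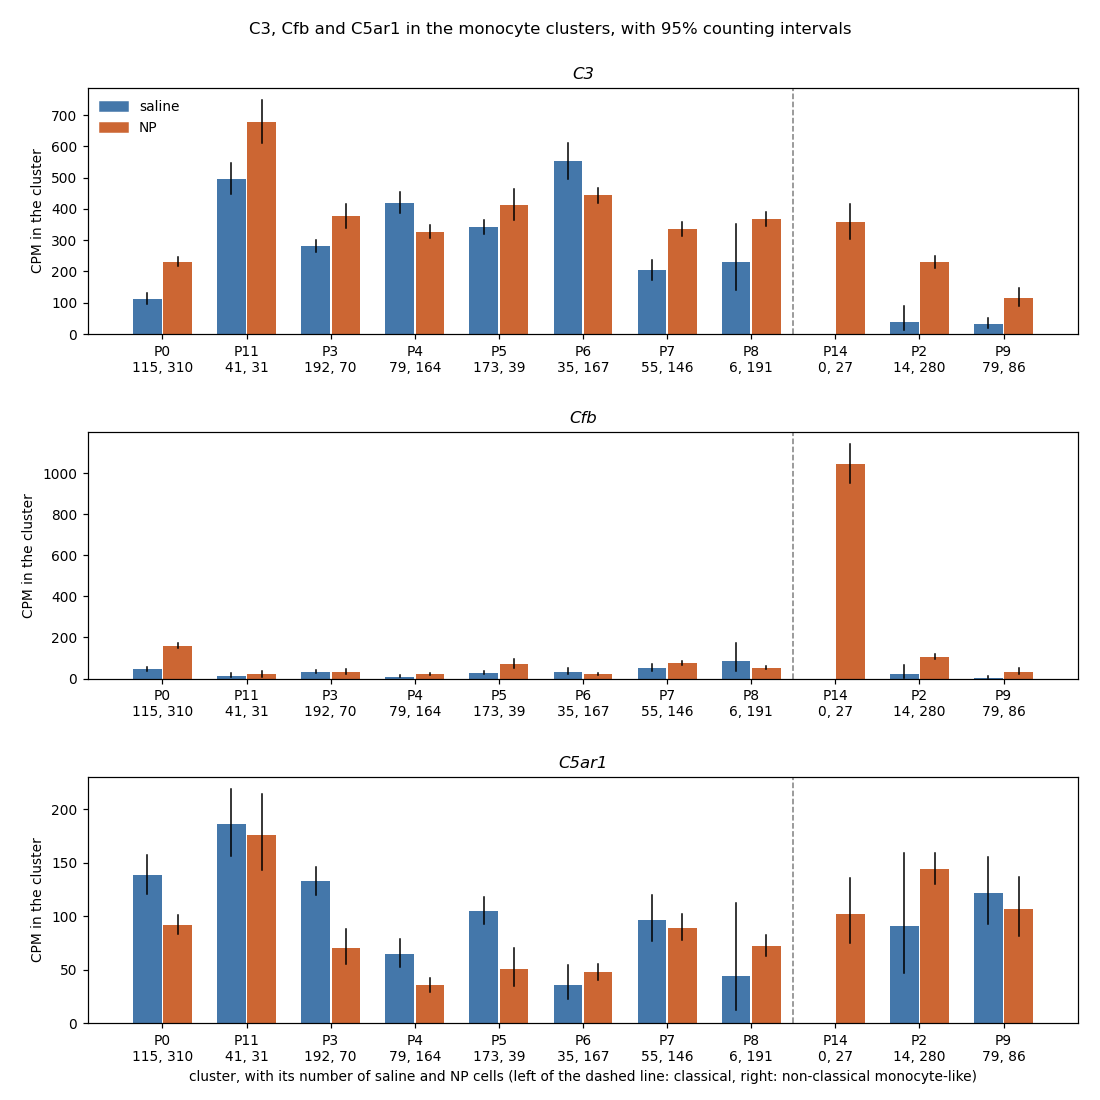
CPM of C3, Cfb and C5ar1 in the clusters of classical monocytes (P0, P11, P3 to P8) and non-classical monocytes (P14, P2, P9), saline and NP, as bars with 95% counting intervals. Cfb was highest in P14, which held NP cells alone, and was 45.1 against 160.5 CPM in P0, whereas C5ar1 was lower in NP in P0, P3, P4 and P5.

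In the other sources of Cfb the difference was smaller. Alveolar macrophages had 37.2 CPM in saline and 60.2 CPM in NP, a log2 ratio of 0.69 (0.35 to 1.05), while C3 and C5ar1, the other members measured there, had log2 ratios of -0.05 and -0.15. Mesothelial cells had the highest level of any named class, 514 and 602 CPM, a log2 ratio of 0.23 (-0.27 to 0.70). Fibroblasts had 48.9 and 57.4 CPM, and interstitial macrophages 79.5 and 117 CPM, both with intervals that included 0. In classical monocytes 3 of 9 measured members were at least 2-fold higher and none lower, against 3.01% and 1.67% of 11357 genes, namely Cfb, C1qc and Serping1. The Serping1 pair had 0 UMIs in saline and 47 in NP, of which 25 came from 1 cell. With the saline count set to 3 it was 9.42-fold higher, a log2 ratio of 3.24. Over 13 changes of filter, clustering and scaling this ratio ran from 0.96 to 3.29.

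Serping1, at chr2:84765387-84775444 on the minus strand, encodes the C1 inhibitor, which removes the C1r and C1s proteases from C1q and also restrains kallikrein and factor XII. It was the stromal member of the set. Fibroblasts held 60.6% of its UMIs in saline and 63.8% in NP. Their level was 1870 and 1566 CPM, a log2 ratio of -0.26 (-0.39 to -0.13), and by cluster the ratio ran from -0.26 to 0.10. Mesothelial cells had 1168 and 1047 CPM, a log2 ratio of -0.16 (-0.52 to 0.19), and pericytes 181 and 175 CPM, a log2 ratio of -0.05 (-1.45 to 1.68). Serping1 thus differed little between the libraries in fibroblasts and mesothelial cells, while its interval in pericytes was wide.

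Endothelial cells had a lower Serping1 level, 23.3 CPM in saline and 35.9 CPM in NP, a log2 ratio of 0.62 (0.09 to 1.19). Within cluster 7 the ratio was 1.03 (0.36 to 1.78), from 20.6 to 42.1 CPM, and within cluster 10 it was -0.31 (-1.22 to 0.68). Because NP had 1469 endothelial cells and saline 409, this class gave 12.2% of Serping1 UMIs in NP and 2.34% in saline. Over all kept cells Serping1 was 18.6 and 23.0 CPM, a log2 ratio of 0.30 (0.20 to 0.41), and -0.04 at the saline mix of classes.

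C3ar1, at chr6:122847138-122856161 on the minus strand, encodes the receptor for C3a. It had few UMIs, 189 in saline and 356 in NP, and only 3 classes were measured. Interstitial macrophages had 281 and 299.7 CPM, a log2 ratio of 0.09 (-0.39 to 0.60), with a UMI in 11 of 15 and 34 of 36 cells. Basophils, granulocytes that release histamine and IL-4, had 115 and 104 CPM, a log2 ratio of -0.14 (-0.80 to 0.54), and cluster 34 gave 30 of the 32 saline UMIs and all 52 of NP. Classical monocytes had 8.87 and 6.68 CPM, a log2 ratio of -0.41 (-0.80 to -0.01). The ratio was below 0 in all 4 clusters of this class with 20 UMIs, from -2.33 (-5.44 to -0.34) in P3 to -0.38 (-0.95 to 0.22) in P0, with a median of -1.45, and P3 alone had an interval below 0. The leading source was classical monocytes in saline with 52.4% of UMIs and interstitial macrophages in NP with 41.6%, but the latter share was 29.96% without the highest doublet scores. The log2 ratio over all kept cells was 1.02 (0.76 to 1.28), and -0.04 at the saline mix of classes, the same arrangement as for C1q.

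C5ar1, at chr7:16246743-16259540 on the minus strand, encodes the main C5a receptor. It was the neutrophil member of the set, with 87.4% of its UMIs from neutrophils in saline and 75.3% in NP. The level in neutrophils was 464 CPM in saline (22635 UMIs) and 475 CPM in NP (11848 UMIs), a log2 ratio of 0.03 (0.00 to 0.07), and over 14 changes of filter, clustering and scaling it ran from -0.01 to 0.15. After thinning, 40.7% of saline and 42.4% of NP neutrophils had a UMI, and 93.0% of both without thinning. B cells had 0.213% and 0% after thinning, where 0 of 603 cells allowed a share of up to 0.498%, and 1.07% and 0.663% before. Among neutrophil clusters the level ran from 258 CPM in NP cells of cluster 13, led by granule genes of immature cells, to 719 CPM in NP cells of cluster 0. In cluster 13 it was lower in NP than in saline, with a log2 ratio of -0.22 (-0.32 to -0.13). Over the 10 measured clusters the ratio was above 0 in 4 and ran from -0.79 to 0.06, with a median of -0.0019.

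Outside neutrophils, C5ar1 was lower in NP classical monocytes and interstitial macrophages. Classical monocytes had 112 and 71.1 CPM, a log2 ratio of -0.66 (-0.77 to -0.54), and the ratio stayed between -0.71 and -0.53 over 13 changes of processing. It was -0.59 in P0, -0.92 in P3, -0.88 in P4 and -1.07 in P5, each with an interval below 0, while P6, P7, P8 and P11 had intervals that included 0. Interstitial macrophages had 232 and 124 CPM, a log2 ratio of -0.91 (-1.52 to -0.29). Neutrophil marker levels were also lower in NP in both classes, as given above, and their part in this difference was not tested. Non-classical monocytes had 115 and 133 CPM and alveolar macrophages 226 and 204 CPM, with intervals that included 0. In the erythroid class C5ar1 was 555 CPM in 60 saline cells and 171 CPM in 8 NP cells, a log2 ratio of -1.70 (-2.97 to -0.64), where 50.8% of 853 genes were at least 2-fold lower and 3.52% higher and the summed level of neutrophil markers was 91870 and 42450 CPM. Over all kept cells C5ar1 was 333 and 217 CPM, a log2 ratio of -0.61 (-0.64 to -0.59), and -0.02 at the saline mix of classes.

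**Figure D5:**
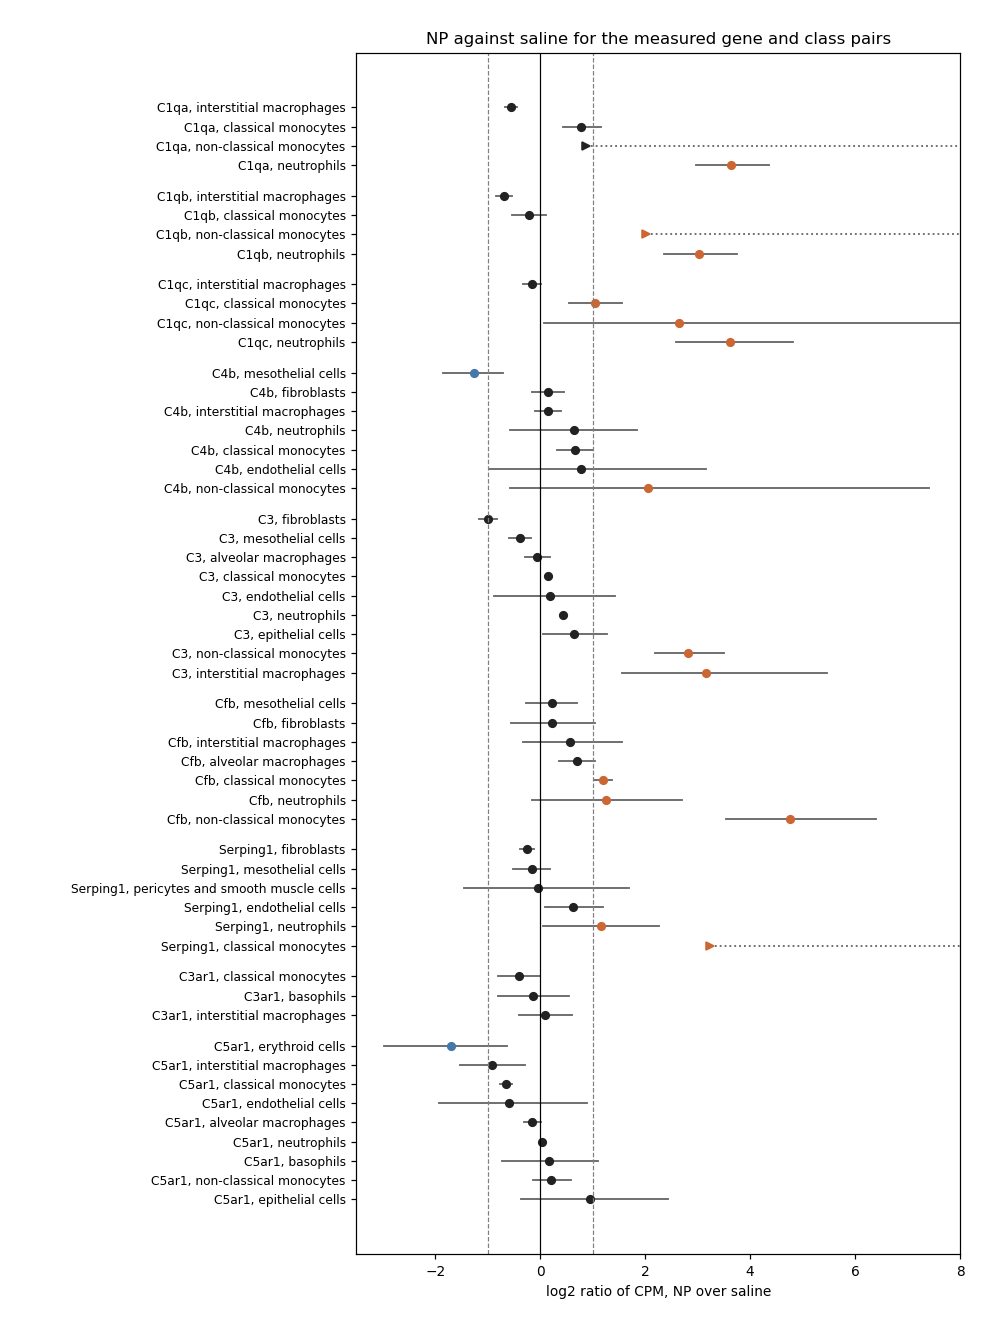
Log2 ratio of NP over saline for the 53 measured pairs of a gene and a class, with 95% counting intervals. Triangles mark bounds where saline had no UMI, dashed lines mark 2-fold, and the axis is cut at 8. Cfb and C3 in non-classical monocytes lie far to the right, while C5ar1 in neutrophils lies at 0.03.

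The genes whose levels most resembled those of the members over 34 points, the 17 classes in 2 libraries, were taken from 11794 genes outside the complement list. The points share libraries and the classes were drawn from the same cells, so that the values are descriptive. For C1qa and C1qc the nearest gene was Ccl12, with Pearson's r of 0.98 for C1qa, and for C1qb Ms4a7. For Serping1 it was Pcolce (r = 0.99), for C3ar1 Alox15 (r = 0.96), for C5ar1 Pygl (r = 0.93) and for C4b Ltbp1 (r = 0.93). C3, which had several sources, had a lower value, 0.90 with Rhou.

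The wider complement list held 55 genes, the 9 members among them, all present in the matrices. Of these, 42 had at least 20 UMIs and Mbl2 and C8b had none. In neutrophils 26 of the 55 were measured, 8 of them at least 2-fold higher and none lower, against 5.05% and 2.71% of all genes of the class. Of the 8, 5 were members, and the median log2 ratio of the 26 was 0.45 against -0.11. As given above, 4 of 3161 NP neutrophils held 93.1% of the C1q UMIs of the class, and Cfb lay near its free-RNA limits. The count of 8 therefore does not measure a rise across the list in this class. In classical monocytes 28 were measured, with 3 higher and none lower, against 3.01% and 1.67%, and a median of 0.02 against -0.05. In non-classical monocytes 17 were measured, with 5 higher and 1 lower, against 6.64% and 3.49%, and a median of 0.21 against -0.04. Except for C3, these 5 met the UMI minimum through NP alone, as given above. All higher genes of both monocyte classes were the members given above, so that no further listed gene was 2-fold higher there. In interstitial macrophages 20 were measured, with 3 higher, 1 of them a member, and 1 lower, against 6.39% and 5.79%. Fibroblasts had 16, with none higher and 2 lower, against 3.7% and 3.87%, and endothelial cells had 18, with 3 higher and none lower, against 3.05% and 1.34%.

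Of the other classical pathway genes, C1s1, C1ra and C2 were also highest in a stromal class, but in mesothelial cells, whereas Serping1 was highest in fibroblasts. C1s1, encoding a C1s protease, was 405 and 380 CPM in mesothelial cells and 304 and 255 CPM in fibroblasts, and C1ra, encoding a C1r protease, 388 and 524 CPM and 217 and 191 CPM. C2, whose product pairs with C4b in the C3 convertase, was 749 and 694 CPM in mesothelial cells and 38.3 and 42.7 CPM in fibroblasts. All 6 of these ratios had intervals that included 0. The proteases that C1q carries were thus found mainly in other cells than C1q itself. Hc, encoding C5, the source of C5a, was in contrast epithelial, 507 and 985 CPM, a log2 ratio of 0.96 (0.77 to 1.15), in the class where 23.3% of 5796 genes were at least 2-fold higher. The median log2 ratio of those genes was 0.55. The class also differed in make-up. Cluster S9, led by Scgb1a1, had 25 saline and 5 NP cells, and S1, led by Sftpc, had 23 and 42. The summed level of 14 epithelial markers was 456300 and 253800 CPM, and its part in the Hc ratio was not tested.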

How the data were processed

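Lungs of 4T1 tumor-bearing mice, 1 pool given saline and 1 given NPs, were profiled with droplet single-cell libraries. The authors deposited unfiltered gene-by-barcode matrices of UMI counts. The submitters' processing notes name Cell Ranger 6.0, bcl2fastq and the mm10 build, and the methods of the study say that Cell Ranger mapped the reads and gave the matrices. The study's own clustering and comparisons used Seurat. The role of bcl2fastq is not given in the sources used here. The deposited counts were not normalized, filtered or pooled further.

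Barcodes with 500 to 5000 detected genes and under 7.5% of UMIs from mitochondrial genes were kept. Library totals were 91168129 UMIs in saline and 90081747 in NP. Counts were scaled to 10000 UMIs per cell and log-transformed. From 2000 variable genes without the complement list, 30 principal components and 20 neighbours were taken (scikit-learn 1.9.0). Cells were clustered by the Leiden method at resolution 2 (igraph 0.11.9, leidenalg 0.10.2, Python 3.11.15), with a second clustering of mononuclear phagocytes and stromal cells. A cluster took a class name from the fixed markers, and 9 of 55 clusters stayed unnamed. Doublets were not removed in the main analysis. Scrublet scores (scanpy 1.11.5) served in an alternative that left out the highest 8% of cells.

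UMIs of a gene were summed by class and library and given as CPM. The log2 ratio of NP over saline had an exact conditional binomial 95% interval, shares an exact Clopper-Pearson interval and levels an exact Poisson interval. PCR duplicates were collapsed by UMI, and the intervals cover counting error only. A count of 0 was set to 3 UMIs for the class, which makes the ratio a bound for counting error only. A pair needed 20 UMIs over both libraries and was called past 2-fold, and the share of all genes past the same limits is given beside the members. Free RNA was profiled in barcodes under 50 UMIs, and the highest share each class allows was used as an upper limit. This limit was 0% to 2.95% of a class's UMIs. It came from the gene that gave the lowest share and holds no counting error. A limit of 0%, as in the 8 NP erythroid cells, means that such a gene had no UMI, not that free RNA was absent. Cells were thinned to 1000 UMIs for shares of cells with a UMI. Likeness was Pearson's r of log2(CPM + 10) among genes with at least 200 UMIs. Gene positions are of GENCODE for GRCm38, in which 99.6% of gene identifiers were found, and promoters of RefSeq, build GRCm38.p6, with 5 of the 9 members matched. The log2 ratio and its interval were tested on simulated Poisson counts for neutrophils, non-classical monocytes and interstitial macrophages. That simulation did not cover counts gathered in a few cells. Clustering, class names, free-RNA limits and thinning were not tested in this way.

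The members and gene lists were chosen with earlier results of these data known. The text names the 9 members in every class, genes of the wider complement list with at least 20 UMIs in a class, the genes most like each member, and markers or leading genes of a cluster. There were 13 alternatives of filter, doublets, clustering, class, scaling and free RNA, further limits on UMIs, fold and thinning, and 2 alternatives chosen after seeing the data (non-classical monocytes without cluster P14 and neutrophils without cluster 13). The rank test over cells of the study was not used, since cells are not replicates. Some results that the rule for named genes covers are not reported here.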

Additional observations from a re-analysis of the deposited data

Results flagged for a closer look

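Opposite directions of 1 gene in different classes were looked for among measured pairs that passed 1.5-fold with intervals on 1 side of 0, and 3 genes had them. C1qb had a log2 ratio of 3.03 in neutrophils and of -0.688 in interstitial macrophages, and 4 NP neutrophils held 93.1% of the C1q UMIs of that class. C4b had a log2 ratio of 0.661 in classical monocytes and of -1.254 in mesothelial cells, the latter over 33 saline and 11 NP cells. C3 had a log2 ratio of 3.16 in interstitial macrophages and of -0.993 in fibroblasts, and 63 of the 81 NP UMIs in interstitial macrophages came from 1 cell. With 1 library in each group, the difference between the classes was not tested for any of the 3 genes.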

How the results depend on the processing

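No paired analysis was possible because each group was 1 library, and no replicate could be left out. The number of pairs at least 2-fold higher in NP was 14 and lay between 10 and 20 under the 13 alternatives of filter, doublets, clustering, class and scaling. It was 9 with a minimum of 50 UMIs and 23 with a fold threshold of 1.5. The number at least 2-fold lower was 2 and lay between 2 and 3, except that it was 1 with complement genes kept for clustering, 11 with each cell classed by its own marker score and 7 with a fold threshold of 1.5. Both alternatives chosen after seeing the data left 2 lower pairs, with 14 higher without cluster P14 and 12 without cluster 13.

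With the highest 8% of doublet scores left out, the log2 ratio was -0.71 for C1qc in neutrophils and 1.89 for C4b in mesothelial cells, where that alternative keeps 1 NP cell. With each cell classed by its own marker score, it was -0.66 for C1qb in non-classical monocytes, -0.23 for C1qc in classical monocytes, -0.0019 for both C1qc and Cfb in neutrophils, and 0.16 for C5ar1 in erythroid cells. The cause was not tested. The ratios over all kept cells stayed on the same side of 0 under the 13 alternatives for C1qa, C1qb, C1qc, C4b, Cfb, C3ar1 and C5ar1, but ran from -0.09 to 0.48 for C3 and from -0.26 to 0.64 for Serping1. Depth limits the C1q, C4b and Cfb ratios of classes with few saline UMIs, and the number of cells limits interstitial macrophages and mesothelial cells.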

Other observations

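Several other complement genes with at least 20 UMIs in a class differed between the libraries by more than their counting error. In interstitial macrophages Fcna, encoding ficolin A, a lectin that starts the lectin pathway, was 232 CPM in saline and 480 CPM in NP, a log2 ratio of 1.05 (0.55 to 1.58), while Vsig4, a complement receptor of resident macrophages that binds C3b, was 128 and 60.8 CPM, a log2 ratio of -1.08 (-1.93 to -0.20). Itgax, the alpha chain of complement receptor 4, was 36.7 and 132 CPM in interstitial macrophages, a log2 ratio of 1.84 (0.64 to 3.34), and 289 and 149 CPM in non-classical monocytes, a log2 ratio of -0.95 (-1.20 to -0.71). The interstitial class held only 15 saline and 36 NP cells. Of its 20 measured genes of the list, 3 were at least 2-fold higher and 1 lower, against 6.39% and 5.79% of all its genes. Vsig4 had 26 UMIs in saline and 31 in NP over all kept cells. In neutrophils Fcnb, encoding the ficolin of myeloid precursors, was 12.3 and 30.1 CPM, a log2 ratio of 1.29 (1.13 to 1.45).

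In fibroblasts the regulators Clu and Cd55, which block the terminal pathway and the C3 convertases, were lower in NP. Clu was 44.7 and 14.7 CPM, a log2 ratio of -1.60 (-2.85 to -0.45), and Cd55 was 134 and 50.1 CPM, a log2 ratio of -1.42 (-2.07 to -0.80). They were the 2 lower genes among the 16 of the list measured in fibroblasts, with none higher. Of all 7005 genes of the class, 3.87% were at least 2-fold lower and 3.7% higher. Cluster S8 made up 18 of the 84 saline and 14 of the 123 NP fibroblasts, and the part of this in both ratios was not tested. In endothelial cells Vtn, encoding vitronectin, had 1 UMI in saline and 61 in NP, a log2 ratio of 3.97 with an interval from 1.43 to 9.29, and it was 578 and 440 CPM in pericytes. The unnamed cluster 23 held 98 C1qa UMIs in 83 saline cells and none in 82 NP cells, and 2 saline cells without a class held 225 C1q UMIs.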
